A study of Mus musculus with 4 samples.

Results

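Immediate early genes were described across the cells of both libraries, as 10 genes of the 27998 measured: Fos, Fosb, Jun, Junb, Jund, Egr1, Ier2, Dusp1, Zfp36 and Klf2. They were taken by name, not by their values, and all 10 had UMIs (unique molecular identifiers, each marking 1 captured transcript) in both libraries. Immediate early genes are transcribed within minutes of a stimulus by transcription factors that are already present in the cell. Their RNAs are short-lived, so the response is brief. Mitogens, cytokines, stress and the enzymes and handling used to dissociate a tissue all induce them, and in single-cell data they are widely used as a sign of dissociation. Fos and Fosb pair with the Jun proteins to form the AP-1 transcription factor, while Dusp1 and Zfp36 end the response by dephosphorylating MAP kinases and by destroying AU-rich RNAs.

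Cells came from embryonic mouse pancreas at embryonic day 15.5 and were profiled on the 10x Genomics platform. The control library came from OGTflox/flox animals, also labelled WT. The study's design text says that its cells were sorted on E-cadherin GFP, while the labels of all samples say FACS for GFP. The other library came from PdxCre;OGTflox/flox;CAG GFP animals, labelled OGT KO, and was sorted on endogenous GFP. Both groups carry floxed Ogt, which encodes O-GlcNAc transferase, and the Pdx-driven Cre is meant to delete it in the pancreatic epithelium of the second. Each genotype has 2 sequencing runs of the same material that cannot be separated, so n = 1 library per genotype, the labels state no number of embryos, and genotype, reporter and sort cannot be told apart. Nothing below is tested, and every interval is a 95% interval that covers counting error alone.

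The control library kept 921 cells and 11810583 UMIs (median 10867 per cell), and the knockout-labelled library kept 553 cells and 10357581 UMIs (median 16168), with 0 barcodes in common. Despite the epithelial sorts, leukocyte-like classes made up 77.6% of control cells and 14.5% of knockout-labelled cells, not counting the 93 control cells of the unnamed cluster 6, whose macrophage markers summed to 34011 CPM. Cdh1, which encodes E-cadherin, had a UMI in 8.33% of control cells and 29.0% of knockout-labelled cells once each cell was thinned to 5000 UMIs. Ogt stood at 37.1 and 38.2 CPM (a gene's UMIs in parts per 1000000 of all UMIs of the class) in acinar-like cells of the control and knockout-labelled library. In trunk/ductal-like cells it was 86.7 (62.7 to 117) and 62.9 CPM (47.1 to 82.2). In endocrine-like cells it was 123 (76.0 to 188) and 29.5 CPM (18.3 to 45.1), on 21 UMIs in each library. No source used here gives the deleted exons, so a tag from the end of the Ogt transcript may not check the deletion. Cells fell into 19 clusters, made without the immediate early genes and the related gene lists, of which 15 could be named from markers. The 3 epithelial classes and 1 leukocyte cluster led by S100a8 and S100a9 had at least 15 cells in both libraries. That cluster met no marker rule for a name and was picked for comparison by its leading genes after the data were seen.

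The promoters of Dusp1, Zfp36 and Klf2 are shown because these genes had the widest differences between leukocyte-like and acinar-like cells, and that of Fos because it is the member most often used to mark the response. Each is a 300-base window read 5′ to 3′ in the gene's direction, mostly upstream of the RefSeq transcription start and ending in the first exon, on build GRCm38.p6. Capitals mark cyclic AMP response elements (CRE, TGACGTCA) and their 5-base core (TGACG), serum response CArG boxes, Egr sites (GCGNGGGCG) and TATA boxes (TATAAA or TATATA), searched on both strands. The Fos window is chr12:85473640-85473939 on the plus strand, that of Dusp1 chr17:26508423-26508722 on the minus strand, that of Zfp36 chr7:28379179-28379478 on the minus strand and that of Klf2 chr8:72318812-72319111 on the plus strand.
Fos: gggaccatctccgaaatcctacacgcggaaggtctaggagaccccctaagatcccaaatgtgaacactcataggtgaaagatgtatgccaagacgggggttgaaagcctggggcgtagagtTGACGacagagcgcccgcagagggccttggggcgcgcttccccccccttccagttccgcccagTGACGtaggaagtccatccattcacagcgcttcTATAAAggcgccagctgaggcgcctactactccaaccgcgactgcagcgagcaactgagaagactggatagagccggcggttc
Dusp1: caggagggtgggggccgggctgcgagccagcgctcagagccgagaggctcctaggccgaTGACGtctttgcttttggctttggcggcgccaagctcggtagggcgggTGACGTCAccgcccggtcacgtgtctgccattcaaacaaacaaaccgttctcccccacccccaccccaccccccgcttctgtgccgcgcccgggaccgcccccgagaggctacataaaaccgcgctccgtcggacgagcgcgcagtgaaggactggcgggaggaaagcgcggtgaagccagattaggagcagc
Zfp36: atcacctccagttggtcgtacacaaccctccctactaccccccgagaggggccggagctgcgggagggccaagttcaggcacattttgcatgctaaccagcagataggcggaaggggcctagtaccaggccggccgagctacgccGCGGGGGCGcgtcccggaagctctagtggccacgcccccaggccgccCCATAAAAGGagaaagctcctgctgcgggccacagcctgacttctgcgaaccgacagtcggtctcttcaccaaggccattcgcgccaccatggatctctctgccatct
Klf2: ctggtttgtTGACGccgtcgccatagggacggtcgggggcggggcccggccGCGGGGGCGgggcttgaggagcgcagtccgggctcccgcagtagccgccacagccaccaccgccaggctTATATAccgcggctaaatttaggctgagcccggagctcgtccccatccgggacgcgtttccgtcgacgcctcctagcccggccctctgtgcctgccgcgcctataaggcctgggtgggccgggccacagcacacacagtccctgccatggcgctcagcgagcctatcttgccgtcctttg

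Of the 10 genes, Egr1 was not looked up and Ier2 had no window, which left 8 with a window among the 32851 searched. The full CRE was found in the Dusp1 window alone, from -143 to -136 relative to the start, and in 1.79% of all windows. Its core was found in 5 of the 8 (Fos, Fosb, Junb, Dusp1 and Klf2, with Fos holding it at -129 and -66), against 20.8% of all windows. A full CRE contains the core on each strand. The CArG box, bound by serum response factor, was found in the Zfp36 window at -58 (1.63% of all windows), and the Egr site in Fosb, Zfp36 and Klf2 (5.55%). GC boxes (GGGCGG, some of them overlapping Egr sites) lay in 6 of the 8 windows and 35.7% of all windows, the Ets core CCGGAAG in Zfp36 (8.86%), a TATA box in Fos, Junb and Klf2 (17.1%) and the AP-1 site TGANTCA in 0 of the 8 (7.81%). These are matches of letters in a short window, and the windows follow RefSeq starts. In the GENCODE annotation the gene model of Jund starts downstream of its window (chromosome 8, 70698949), and those of Zfp36 (chromosome 7, 28380253) and Dusp1 (chromosome 17, 26562128) start upstream of theirs.

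Fos encodes the inducible AP-1 subunit most often read as a mark of recent stimulation. In control cells its level was 2166 CPM in monocyte-like cells (interval 2102 to 2232), 2150 in the S100a8/S100a9-led cluster (2043 to 2261) and 2099 in dendritic cell-like cells (2029 to 2170). The 24 cells of that cluster in the knockout-labelled library gave 2139 (1989 to 2297). The intervals of these 4 levels overlapped, and they stood above macrophage-like cells at 1270 (1235 to 1306) and the unnamed cluster 6 at 1210 (1155 to 1268), which carries macrophage and hemoglobin genes. Among epithelial cells Fos was highest in trunk/ductal-like cells of the control, at 1034 (946.5 to 1128). Trunk/ductal-like cells of the knockout-labelled library (630), control acinar-like cells (576, 535.4 to 618.9) and control endocrine-like cells (520.1, 417.7 to 640) came next, with neighbouring intervals that overlap. In the knockout-labelled library mast cell-like cells held 969 and lymphoid-like cells 554 (492.7 to 619.6). Lowest were the remaining classes of that library: endocrine-like 375, mesothelium-like 349, acinar-like 311, unnamed cluster 8 with 290, mesenchyme-like 284 and unnamed cluster 18 with 223. Fosb, its close relative, ranged over classes of at least 13 cells from 12.0 CPM in cluster 18 (2 UMIs) to 193 in the 13 mast cell-like cells (134.9 to 266.7), with macrophage-like cells at 146 and mesenchyme-like cells at 24.4.

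**Figure D1:**
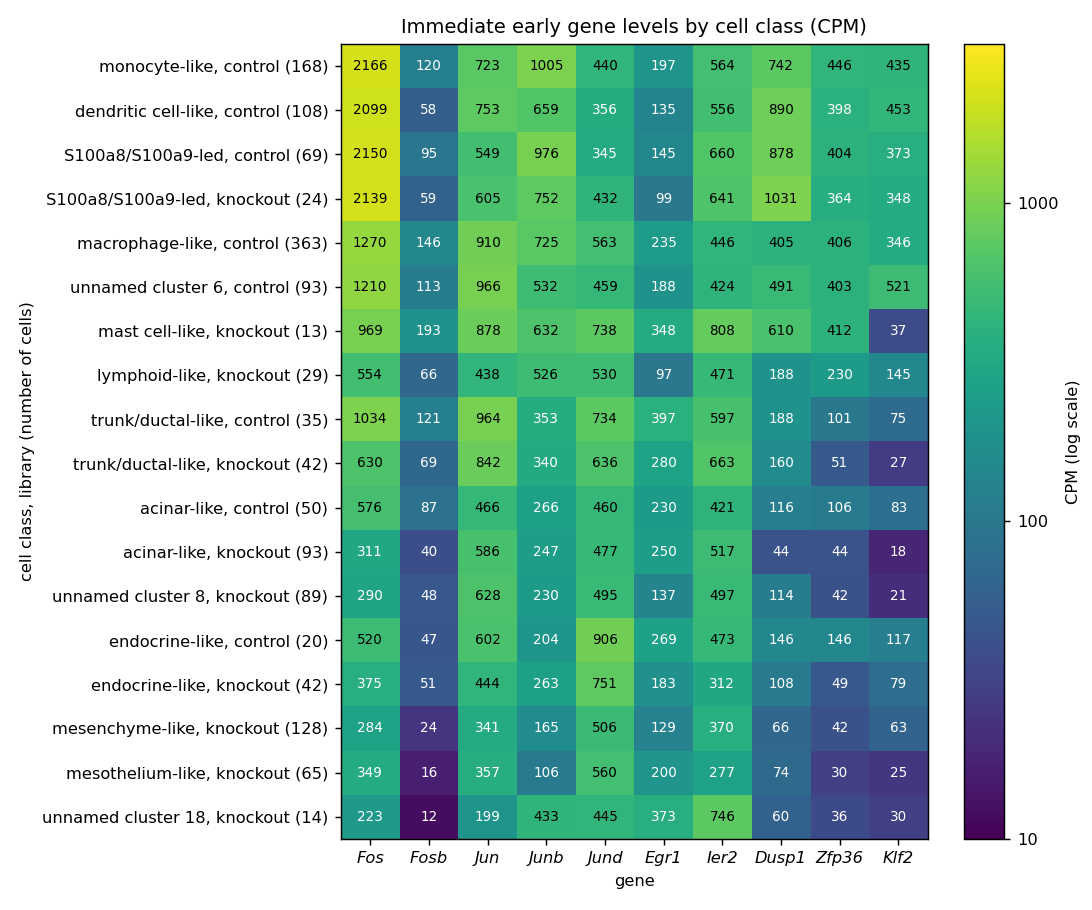
CPM of each of the 10 immediate early genes (columns) in each cell class of each library with at least 13 cells (rows, number of cells in brackets), coloured on a log scale and printed in each box. Dusp1, Zfp36 and Klf2 are dark in the epithelial, mesenchyme-like and mesothelium-like rows, while Jund and Ier2 vary less from row to row.

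The Jun subunits followed other orders over the classes. Jun, the main partner of Fos, measured, among others, 966 CPM in cluster 6, 964 in control trunk/ductal-like cells (879.1 to 1054), 910 in macrophage-like cells and 842 in trunk/ductal-like cells of the knockout-labelled library. Its low end was 341 in mesenchyme-like cells and 357 in mesothelium-like cells of that library, and 199 in cluster 18. Junb, which can dampen Jun activity, was highest in monocyte-like cells (1005, 961.3 to 1050) and the control S100a8/S100a9-led cluster (976, 904.7 to 1052) and lowest in mesothelium-like cells (106, 86.86 to 127.4). Jund encodes the constitutively expressed Jun protein. Over classes of at least 13 cells it ran from 345 CPM in the control S100a8/S100a9-led cluster to 906 in control endocrine-like cells (768.8 to 1060), and endocrine-like cells of the other library were the next highest at 751.

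Egr1, a zinc-finger factor induced through ERK signalling, was highest in control trunk/ductal-like cells, at 397 CPM (343.6 to 456.6), beside 373 in cluster 18 (286.1 to 478.4), and the lowest levels were 97.4 in lymphoid-like cells (73.0 to 127.5) and 98.9 in the S100a8/S100a9-led cluster of the knockout-labelled library (68.87 to 137.5). Ier2, a small nuclear regulator, ran, over classes of at least 13 cells, from 277 CPM in mesothelium-like cells to 808 in mast cell-like cells, and its acinar-like levels of 421 and 517 lay in the middle of that range.

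Dusp1, Zfp36 and Klf2 set most leukocyte-like classes apart from the other cells. Dusp1, the phosphatase that inactivates MAP kinases, measured 1031 CPM (928.1 to 1143) in the knockout-labelled S100a8/S100a9-led cluster, 890 in control dendritic cell-like cells, 878 in the control S100a8/S100a9-led cluster, 742 in monocyte-like cells and 405 in macrophage-like cells. Its acinar-like levels were 116 (98.17 to 136.1) in the control and 43.6 (36.41 to 51.89) in the knockout-labelled library. Zfp36, also called tristetraprolin, lay between 364 and 446 CPM in control monocyte-like, macrophage-like and dendritic cell-like cells, cluster 6 and the S100a8/S100a9-led cluster of both libraries. In the epithelial, mesenchyme-like and mesothelium-like classes of at least 13 cells it lay between 29.8 in mesothelium-like cells and 146 in control endocrine-like cells. Klf2, a Krüppel-like factor of quiescent leukocytes and endothelium, was highest, among classes of at least 13 cells, in cluster 6 (521) and control dendritic cell-like cells (453), and the 7 dendritic cell-like cells of the knockout-labelled library gave 679 (553 to 825). Mast cell-like cells had Zfp36 at 412 but Klf2 at 37.5 (7 UMIs, 15.06 to 77.19).

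Within the control library, macrophage-like cells (363) were at least 1.5-fold above acinar-like cells (50) in 7 of the 10 genes and at least 1.5-fold below them in 0. Of all 10058 genes with at least 20 UMIs in this comparison, 35.3% were higher by that limit and 26% lower. The ratio was 2.20 for Fos (2.04 to 2.38), 3.49 for Dusp1, 3.83 for Zfp36 and 4.19 for Klf2 (3.44 to 5.15), and 1.02 for Egr1 and 1.06 for Ier2. The S100a8/S100a9-led cluster over acinar-like cells gave 6 higher (31.7% of genes) and 1 lower, Egr1 at 0.630 (35.2%), in the control. The same cells of the knockout-labelled library gave 5 higher (24.6%) and Egr1 again lower at 0.396 (35.8%). The control ratios were 3.73 for Fos, 7.57 for Dusp1 (6.33 to 9.11), 3.82 for Zfp36 and 4.51 for Klf2. In the knockout-labelled library they were 6.88 for Fos, 23.6 for Dusp1 (19.3 to 29.1), 8.35 for Zfp36 and 18.9 for Klf2. Monocyte-like over macrophage-like cells gave only Fos (1.71) and Dusp1 (1.83) higher (11% of genes) and 0 lower (17.2%). In the knockout-labelled library, mesenchyme-like over acinar-like cells gave Dusp1 (1.52) and Klf2 (3.42) higher (37.7% of genes) and Fosb, Jun and Egr1 lower, at 0.612, 0.583 and 0.518 (15.6%).

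Over all cells, the summed level of the 10 genes was 5498 CPM in the control and 2834 in the knockout-labelled library, a ratio of 0.515 (0.508 to 0.523). Lower by at least 1.5-fold were 6 of the 10 genes, against 18.3% of 13806 genes: Fos (1479 and 464 CPM, ratio 0.314), Fosb (0.403), Junb (0.418), Dusp1 (0.285), Zfp36 (0.225) and Klf2 (0.174). Higher were 0, against 38.6%. Jun stood at 0.687, Egr1 at 0.923, Ier2 at 0.965 and Jund at 1.08. Scaling by TMM moved all these ratios by -0.36 on the log2 scale, which put Jund at 0.838. Of the control cells 363 were macrophage-like and of the others 3, so these values do not compare like cells.

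In acinar-like cells the summed level was close in both libraries, 2809 CPM in 50 control cells and 2533 in 93 knockout-labelled cells (ratio 0.902, 0.866 to 0.938). Nearly all of these control cells were in cluster 14 and the others in cluster 4, which differ in digestive enzyme genes. Fos was 576 CPM in the control and 311 (290.8 to 331.5) in the knockout-labelled library, a ratio of 0.539 (0.489 to 0.595), and Fosb was 86.6 and 39.9, a ratio of 0.461. Dusp1 had a ratio of 0.376 (0.295 to 0.480), Zfp36 was 106 and 43.6 (ratio 0.412), and Klf2 was 82.7 and 18.4 (ratio 0.223, 0.157 to 0.311). The remaining genes lay between the limits, with Jun at 1.26 (1.15 to 1.38), Junb at 0.929, Jund at 1.04, Egr1 at 1.09 and Ier2 at 1.23. So 5 of 10 were lower, where 13% of 9538 genes were, and 0 were higher, where 14.5% were. The median log2 ratio was -0.50 for the members and 0.03 for all genes. Single cells overlapped, the quartiles of Fos over acinar-like cells being 370 and 730 CPM in the control and 124 and 404 in the knockout-labelled library.

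The trunk/ductal-like cells of cluster 9 (35 and 42) gave a summed ratio of 0.811 (0.768 to 0.856), with 4 of 10 genes lower (12.6% of 7124 genes) and 0 higher (13.4%). Fos was 1034 and 630 CPM (ratio 0.609, 0.538 to 0.689), Fosb 121 and 68.8 (0.569), Zfp36 101 and 51.0 (0.506) and Klf2 74.6 and 27.3 (0.366, 37 and 23 UMIs). With the mean of the cells' own levels in place of the pooled level, only Zfp36 and Klf2 of these were below the limit, and without the 5 highest cells of each library Zfp36 was not. Between the limits lay Jun at 0.874, Junb at 0.965, Jund at 0.866, Egr1 at 0.705, Ier2 at 1.11 and Dusp1 at 0.854 (0.651 to 1.12). In endocrine-like cells of cluster 11 (20 and 42) the summed ratio was 0.762 (0.694 to 0.838), with Ier2 (0.659) and Zfp36 (0.337, 25 and 35 UMIs) lower against 17.2% of 6000 genes, and 0 higher against 23%. Ier2 passed the limit narrowly and did not without a barcode filter, without the 5 highest cells of each library or with TMM or DESeq2 scaling, which moved the ratios of this class by 0.12 and 0.09 on the log2 scale. The remaining endocrine-like ratios were 0.722 for Fos, 0.738 for Jun, 0.829 for Jund, 0.680 for Egr1, 0.741 for Dusp1 and 0.674 for Klf2. Above 1 were Fosb at 1.08 (8 and 36 UMIs) and Junb at 1.28 (0.892 to 1.90).

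The S100a8/S100a9-led cluster, whose lineage was not measured, gave a summed level of 6576 CPM in 69 control cells and 6470 in 24 knockout-labelled cells (ratio 0.984, 0.935 to 1.03). Fos (0.995, 0.910 to 1.09), Ier2 (0.972), Zfp36 (0.901) and Klf2 (0.931) lay near 1, and Dusp1 was 1.17 (1.03 to 1.34). Jun was 1.10 (0.927 to 1.30), Jund 1.25 (1.02 to 1.54), Junb 0.770 (0.666 to 0.888) and Egr1 0.683 (0.451 to 1.01), just short of the lower limit. Fosb alone was lower, at 0.624 with 67 and 21 UMIs, against 20.2% of 5513 genes lower and 16.7% higher. The summed level of the 20 macrophage markers differed in this cluster too, at 13982 and 4588 CPM. Settings that left 46 to 57 control cells in it gave summed ratios of 0.896 to 0.922 with 2 members lower, Fosb and Egr1. TMM scaling of the 69 and 24 cells gave 0.9205, with the same 2 lower.

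**Figure D2:**
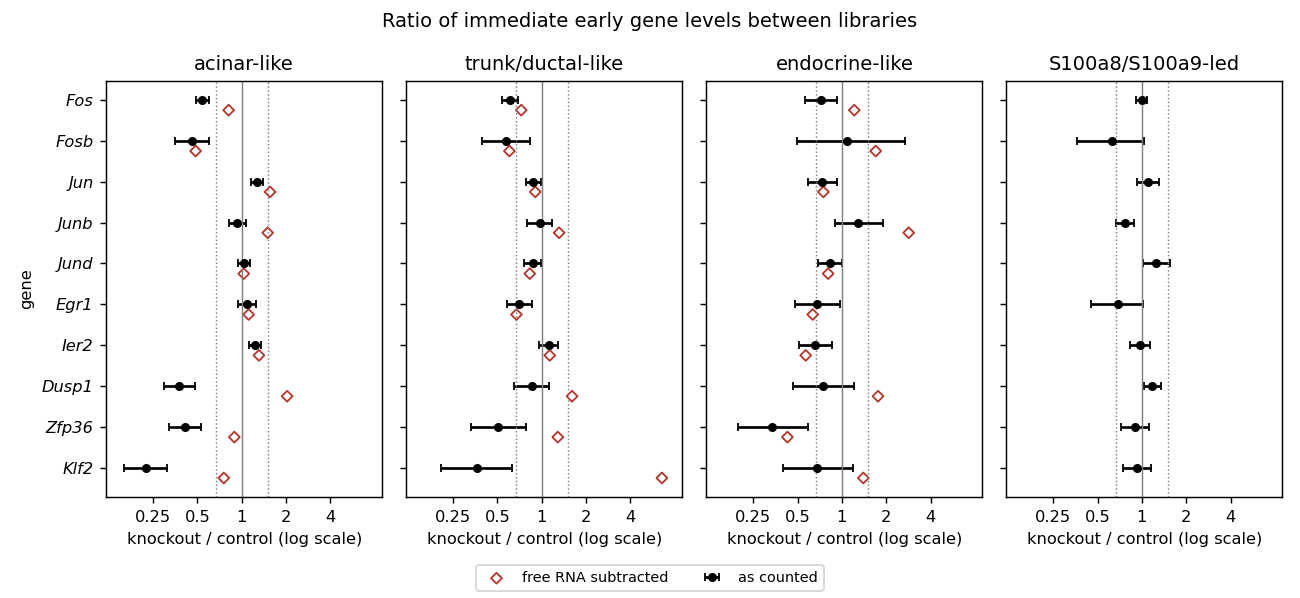
Ratio of each gene's level in the knockout-labelled library to that in the control (log axis), in the 3 epithelial classes and the S100a8/S100a9-led cluster. Black points with bars are ratios with 95% counting intervals, red diamonds the ratios after subtracting free RNA (epithelial classes), and dotted lines the 1.5-fold limits; Dusp1, Zfp36 and Klf2 in acinar-like cells move from 0.376, 0.412 and 0.223 to 2.03, 0.890 and 0.755.

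Macrophage markers also differed between the libraries in the epithelial classes. Whether they account for the ratios of the immediate early genes was not tested. All 20 had UMIs in control acinar-like cells, at a summed 4919 CPM, and 19 had UMIs in the knockout-labelled ones, at 542 CPM. The same sums were 5092 and 573 in trunk/ductal-like and 5008 and 651 in endocrine-like cells. For 8 core macrophage markers, the summed level in control acinar-like cells was 20.5% of that in the whole control library (11.8% to 25.5% for single markers), and it was 20.4% and 19.4% in trunk/ductal-like and endocrine-like cells. Control acinar-like cells held Dusp1 at 22.2%, Klf2 at 23.4% and Zfp36 at 29.4% of their levels in the whole library, the first 2 inside the range of the single markers and Zfp36 just above it, and Fos at 39.0%, Fosb at 76.2% and Egr1 at 108%. In the knockout-labelled library, 7 core mesenchyme markers in acinar-like cells were at 16.8% of the library level (9.56% to 28.9%), with Dusp1 at 29.3%, Klf2 at 29.9% and Fos at 66.9%.

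**Figure D3:**
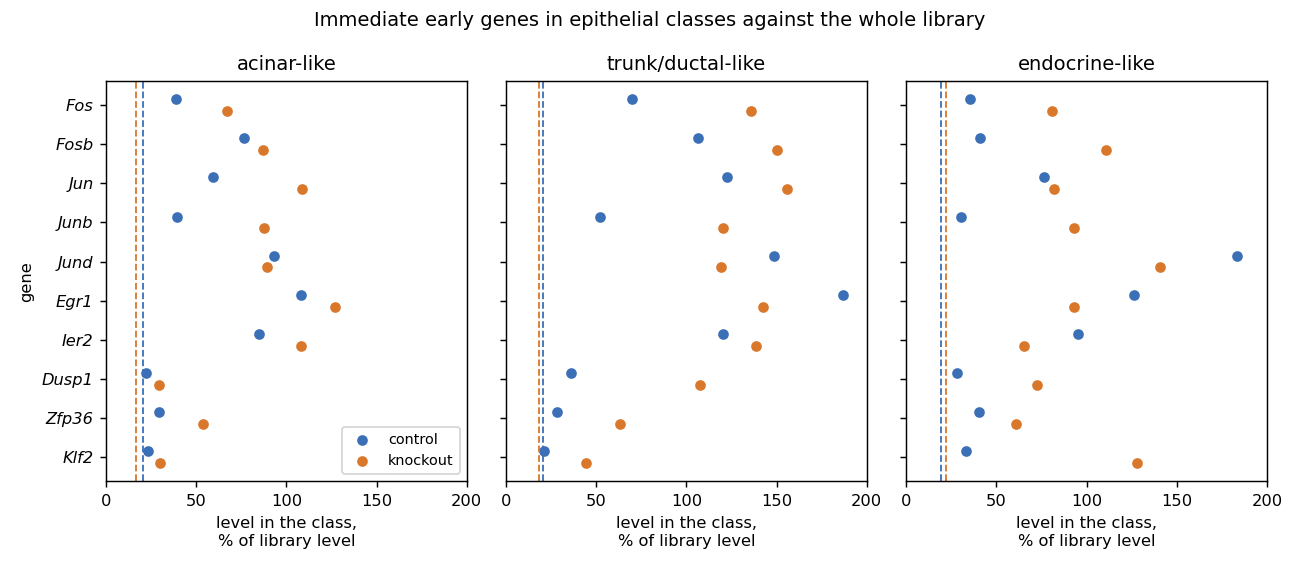
Level of each gene in 3 epithelial classes as a percentage of its level in the whole library (control blue, knockout-labelled orange), with dashed lines at the percentage for core markers of another cell type, macrophage in the control and mesenchyme in the knockout-labelled library. In control acinar-like cells Dusp1, Zfp36 and Klf2 sit at 22.2%, 29.4% and 23.4%, right of the dashed line at 20.5%, and the other 7 genes lie further right.

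Subtracting these shares of the library profile, an alternative added after the data were seen, ended most of the acinar calls. It assumes that free RNA has the mean profile of the library. The share of all genes past the limits after the subtraction was not computed. Fosb alone stayed lower (0.486), Fos was 0.814, Zfp36 0.890 and Klf2 0.755, and Dusp1 turned to 2.03 on a remaining 11.0 and 22.4 CPM. Jun (1.56) then also passed the upper limit, and the summed ratio was 1.17. In trunk/ductal-like cells Fosb alone remained lower (0.602), Fos was 0.725, Zfp36 turned to 1.28 and Klf2 to 6.54, the last on 2.99 CPM left in the control. In endocrine-like cells Zfp36 (0.427), Ier2 (0.568) and Egr1 (0.634) were lower and Fosb, Junb and Dusp1 were 1.70, 2.84 and 1.76, from 8, 35 and 25 control UMIs. The Fosb ratio moved from 0.461 to 0.486 in acinar-like and from 0.569 to 0.602 in trunk/ductal-like cells. In endocrine-like cells it moved from 1.08 to 1.70.

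Shares of cells gave the same order. At 5000 UMIs per cell, Fos had a UMI in 89.6% of control acinar-like cells (77.3% to 96.5%) and 64.5% of knockout-labelled ones (53.9% to 74.2%), and without thinning in 98% and 96.8%. Klf2 had one in 33.3% (20.4% to 48.4%) and 9.68% (4.52% to 17.6%), and unthinned in 74% and 38.7%. Dusp1 had one in 50% and 19.4%, Zfp36 in 39.6% and 15.1%, and Egr1 in 62.5% and 64.5%. The 8 core macrophage markers had a UMI in 25% to 93.8% of the same control cells and the 7 core mesenchyme markers in 2.15% to 62.4% of the knockout-labelled ones, at median depths of 23318 and 31391 UMIs before thinning. All 5 control shares fall inside the first range, and those of Dusp1, Zfp36 and Klf2 in the knockout-labelled cells inside the second. These ranges are too wide for a share of cells to show whether acinar cells express a gene, and this was not tested. By level, control acinar-like cells held Fos at 39.0% and Egr1 at 108% of the whole library, above the 11.8% to 25.5% of single macrophage markers. Fos and Egr1 in the knockout-labelled cells (both 64.5%) lie above the second range.

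Single cells of every class varied widely in the summed UMIs of the 10 genes per 5000 UMIs. The median was 32.5 in monocyte-like cells (lowest 5, highest 93), 32 and 30 in the S100a8/S100a9-led cells of the control and the other library, 28 in dendritic cell-like and 25 in macrophage-like cells (4 to 99). It was 21 and 17.5 in trunk/ductal-like cells, 19 and 10.5 in endocrine-like cells and 13 and 11 in acinar-like cells of the control and the knockout-labelled library. Mesenchyme-like cells of the knockout-labelled library had 8.5 (1 to 54) and mesothelium-like cells 9. The ranges of all these classes overlapped, and 0 cells of any class had none of the 10 genes. Acinar-like cells reached 24 in the control and 56 in the knockout-labelled library. Left out for having under 5000 UMIs were 81 control cells and 1 knockout-labelled cell, 42 of them macrophage-like.

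**Figure D4:**
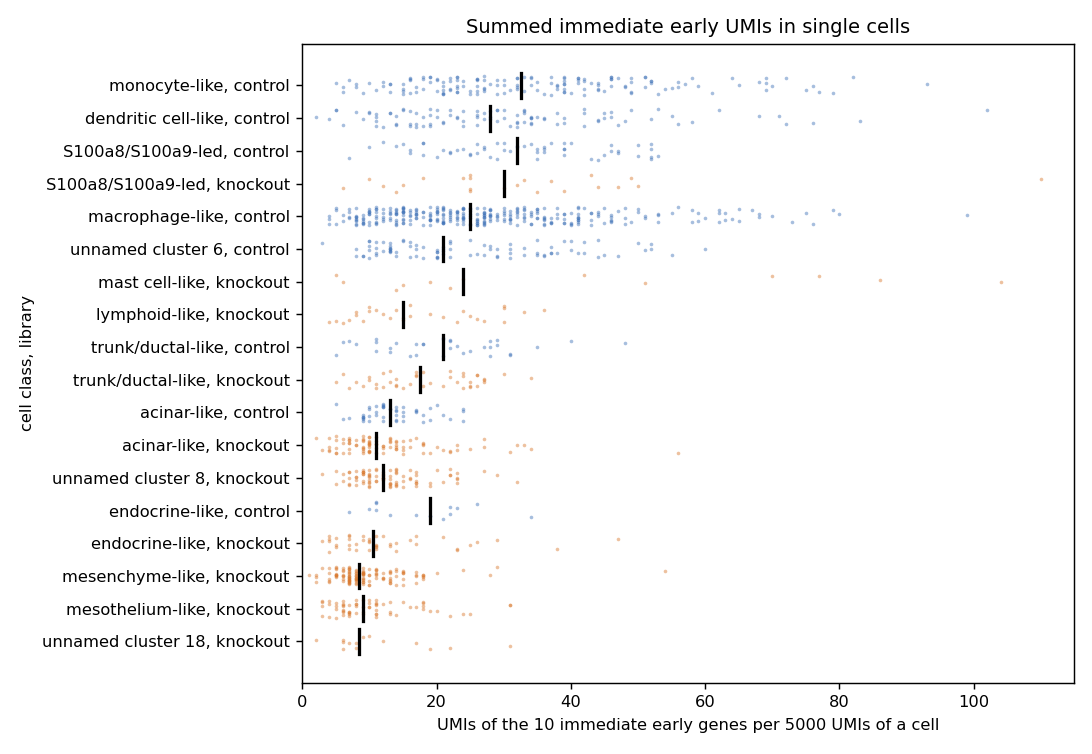
UMIs of the 10 immediate early genes per 5000 UMIs in each cell (points; control blue, knockout-labelled orange) by class and library, with the median as a black bar. Medians fall from 32.5 in monocyte-like cells to 8.5 in mesenchyme-like cells, and the points of neighbouring rows overlap.

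Cells high in 1 of the genes tended to be high in the others, most clearly in leukocyte-like clusters of the control. The groups used held no leukocyte-like cluster of the knockout-labelled library and no epithelial cluster of the control. Cell type and library therefore cannot be told apart in this contrast. Classes of the control groups also had more summed UMIs of the members per thinned cell, with medians of 21 to 32.5 against 8.5 to 12. Whether this raised the correlations was not tested. Within the 8 control clusters, Spearman's rho between Fos and the other 9 genes summed was 0.42 to 0.68 across cells that share a library and were thinned to equal depth. It was 0.45 in the 93 acinar-like cells of cluster 4 and 0.21 in mesenchyme-like cells of cluster 3. In that acinar-like cluster Jun (0.45), Egr1 (0.44), Junb (0.40) and Ier2 (0.40) also moved with the rest, while Dusp1 (0.01), Zfp36 (0.01) and Klf2 (-0.13), each with few UMIs there, did not. Of all pairs of members, Fos with Junb had the highest mean rho over the 12 groups (0.33, 0.08 to 0.49), followed by Fos with Dusp1 (0.31, 0.08 to 0.56), both above 0 in 12 of 12. The summed level correlated little with a cell's total UMIs (-0.31 to 0.18) or with its mitochondrial share (-0.07 to 0.34, the highest in acinar-like cluster 4). Among the 10 genes outside the fixed lists that were most like the summed members over the 12 groups, of 1403 candidates, were Ubb (mean rho 0.19), which encodes polyubiquitin, H3f3b (0.16), Pnrc1, Malat1, Ddx5, Srsf11, Clk1, Itm2b and Calm2 (0.15 to 0.10). Such values are weak in counts this sparse.

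**Figure D5:**
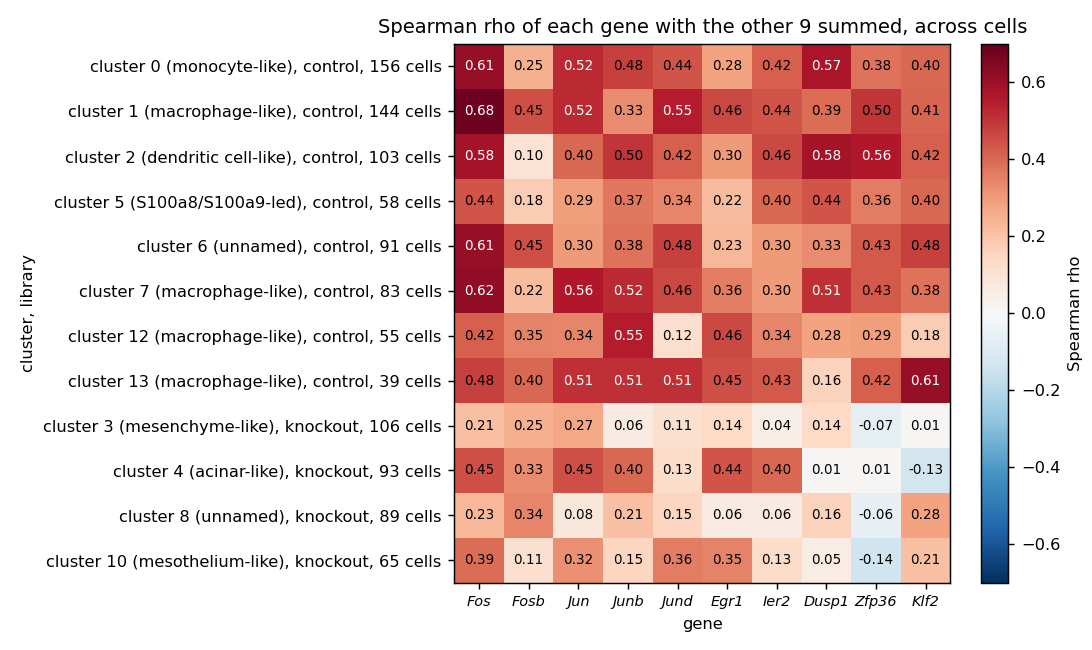
Spearman's rho across cells between each gene and the other 9 summed, in 12 groups of cells of 1 cluster and 1 library, thinned to 5000 UMIs. Control leukocyte-like rows are red throughout, with Fos between 0.42 and 0.68, and in acinar-like cluster 4 the values for Dusp1, Zfp36 and Klf2 are 0.01, 0.01 and -0.13.

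Related genes did not share one direction in acinar-like cells. Of 15 other immediate early transcription factors measured, 3 were lower (Klf4, Cebpb and Bhlhe40) and 4 higher (Egr2, Maff, Mafk and Csrnp1), while Hes1 (295 and 427 CPM), Atf3 (144 and 155) and Klf6 (122 and 116) lay between the limits. Of 21 other early effectors, 3 were lower and 4 higher, among them the antiproliferative gene Btg2 (222 and 355 CPM, ratio 1.60). Feedback genes and targets of ERK were higher in 7 of 12 and lower in 2, with cyclin D1 (Ccnd1) at 38.7 and 84.2 CPM, Phlda1 at 175 and 205 and Dusp6 at 27.1 and 19.4. Kinases and factors upstream of the response were higher in 2 of 24 and lower in 0, and Map2k2 (130 and 156 CPM) and Mapk3 (59.5 and 60.4) lay between. The relatives and AU-rich target RNAs of Zfp36 were lower in 5 of 10 and higher in 0: the decay factor Khsrp and 4 chemokines that leukocytes make, Cxcl2, Ccl2, Ccl3 and Ccl4. RNA-binding Hnrnpd (174 and 166), Elavl1 (101 and 140.5) and Zfp36l1 (92.0 and 101) were between. Klf relatives gave 2 lower and 2 higher of 10, and heat shock genes 2 lower and 3 higher of 15, with Hspa8 at 2802 and 2729 CPM and Hsp90ab1 at 2258 and 2416. The background shares are those given for acinar-like cells above.

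Trunk/ductal-like cells gave similar counts for the chemokines, with Cxcl2, Ccl2, Ccl3 and Ccl4 the 4 lower of 10 in the Zfp36 list and 0 higher, where 12.6% of all genes were lower and 13.4% higher. ERK feedback genes were higher in 4 of 8 and lower in 0, with Ccnd1 at 151 and 306 CPM (ratio 2.02), and the other early transcription factors were higher in 2 of 11, Atf3 (208 and 327) and Maff. Mapk3, which encodes ERK1, was lower in both trunk/ductal-like (143 and 80.6 CPM) and endocrine-like cells (228 and 118). In endocrine-like cells Atf3 was 81.8 and 173 CPM and Hes1 164 and 74.5, heat shock genes were higher in 5 of 11 and lower in 1 (23% and 17.2% of all genes), and Btg2 was 643 and 545.5 CPM.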

How the data were processed

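Per the labels, pancreas cells of 1 control and 1 OGT KO library were profiled by 10x single-cell RNA-seq. The deposited tables hold whole UMI counts per gene and cell, made by the authors with Cell Ranger 2.0.0 on mm10, per the submitters' processing notes, which also name Seurat 2.0 and DESeq2 1.14.1. The 2 runs of a genotype were merged before deposit and counted as 1 library, and no p-value was computed. The 10 genes, the related lists, the marker lists and the tests were chosen with earlier results of these data known.

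Kept barcodes had no fewer than 500 genes and no more than 10% of UMIs from mitochondria (16 control and 56 knockout-labelled barcodes failed), and 4 and 8 doublets marked by Scrublet were removed. Cells were clustered together in scanpy 1.11.5 (2000 variable genes without the members and related lists, 30 components, 15 neighbours, Leiden resolution 1). Clusters were named by the marker list with the highest scaled mean, given 5 detected markers and no majority of another list among the 10 leading genes; names are written with "-like". Levels are summed UMIs as CPM with exact Poisson intervals, ratios have exact conditional intervals and shares exact binomial intervals, all at 95%. A gene was counted as higher or lower at 1.5-fold with at least 20 UMIs over both libraries. Ratios between the libraries are given for all 10 members in each class compared, while the text gives levels for some classes only. Of each related list, up to 3 genes of most UMIs were to be named. Other names of called genes were added after their values were seen. Symbols came from GENCODE M21, and promoter windows from RefSeq (GRCm38.p6). The ratio interval and the limit were tested on simulated data. Alternatives covered filters, doublets, clustering, scaling (edgeR 4.0.16, DESeq2 1.42.0), means of cells, the highest cells, count floors, thinning and, added after seeing the data, free RNA subtraction from core macrophage markers (C1qa, C1qb, C1qc, Csf1r, Pf4, Cx3cr1, Mrc1 and Stab1) and mesenchyme markers (Col1a1, Col1a2, Col3a1, Dcn, Lum, Postn and Pdgfra). Cebpd was not analysed here. Some genes that the naming rule picks are not reported here.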

Additional observations from a re-analysis of the deposited data

How the results depend on the processing

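The 5 acinar-like calls (Fos, Fosb, Dusp1, Zfp36 and Klf2) were made under each alternative but the free RNA subtraction, which left 1 lower and 2 higher and moved the summed acinar-like ratio to 1.17, the trunk/ductal-like one to 0.901 (1 lower, 2 higher) and the endocrine-like one to 0.871 (3 higher). It reversed Dusp1 in acinar-like cells (2.03) and Zfp36 (1.28) and Klf2 (6.54) in trunk/ductal-like cells. The share of all genes past the limits after this subtraction was not computed, so these counts have no background. For all cells, the summed ratio was 0.4005 with TMM, 0.4025 with DESeq2 size factors, 0.550 once digestive enzymes, hormones, ribosomal proteins and mitochondrial genes left the totals and 0.508 without the 5 highest cells of each library. Means of cells gave 0.942 in acinar-like and 0.901 in trunk/ductal-like cells, with 2 trunk/ductal-like members lower. The trunk/ductal-like ratio was 0.632 at resolution 0.5, where the class held 132 knockout-labelled cells, and 0.868 without the 5 highest cells. In endocrine-like cells 1 member was lower with TMM or DESeq2 and 4 without the highest cells. In the S100a8/S100a9-led cluster the summed ratio was 0.907 with no barcode filter, 0.922 with the stricter filter, 0.904 with doublets kept, 0.896 with the stress genes used for clustering, 0.9185 at resolution 2, 0.9205 with TMM and 0.821 without the highest cells, where 4 members were lower; 2 were lower in the other settings just named and with DESeq2 or means of cells, and 0 at resolution 0.5. The cause of these moves was not tested. Of the single-gene ratios, 485 stayed within their interval, 72 moved and 3 reversed. Endocrine-like cells have no value with the stricter filter (10 control cells) or at resolution 2 (13). No paired analysis was possible because each genotype is 1 library and its 2 runs cannot be separated.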
